A study of Mus musculus with 15 samples.

Results

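Genes of TNF and NF-kappaB signalling were followed in brain myeloid cells of mice on a chow or a western diet. They are the 10 of 38924 genes in the expression tables whose gene name is Tnf, Tnfrsf1a, Tnfrsf1b, Tnfaip3, Nfkbia, Nfkbiz, Nfkb1, Nfkb2, Rela or Relb, and all 10 passed the filter on low counts, as did 14967 genes in all. The names were listed by role in the pathway, with no measured value in the rule but with earlier results of these data known.

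TNF is a cytokine made largely by myeloid cells, which binds the receptors TNFR1 and TNFR2. Receptor signalling activates a kinase complex that marks the inhibitor IkB-alpha for destruction, so that dimers of NF-kappaB proteins enter the nucleus and switch on inflammatory genes. Among those genes are some that encode brakes on the same pathway, such as IkB-alpha itself and the enzyme A20. In the brain, microglia and macrophages are the best known source of TNF.

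The cells came from wild type C57BL/6J male mice aged 12 months, kept on chow (CD) throughout or switched to the western diet (WD) at 2 months. Brains were perfused, dissociated and sorted into CD11b+CD45lo cells, the gate that holds mostly microglia, and CD11b+CD45hi cells, the gate used for peripheral myeloid cells. The poly(A) RNA-seq libraries number 4 for CD CD45hi, 4 for CD CD45lo, 3 for WD CD45hi and 4 for WD CD45lo. The study describes its expression counts as given for each animal, and neither it nor the labels say whether a CD45hi and a CD45lo library share a mouse. Total expected counts were 11951412 to 17912272 per library, and the members held between 6.37 expected counts (Relb) and 8758 (Nfkbiz) in a library.

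The gates did not hold single cell types. Summed over 8 microglia markers, the level was 6890.2 to 8431 cpm in CD CD45hi and 17268 to 18268 cpm in CD CD45lo libraries, so CD45hi libraries still carried microglial RNA. Border macrophage markers (5 genes, Mrc1 and Pf4 among them) summed to 616 to 2337 cpm in the 7 CD45hi libraries and 53.6 to 203 cpm in the 8 CD45lo libraries. The T cell genes Cd3e and Trbc2 were listed at 0.0 cpm in nearly every group, with the highest group mean at 0.0644 cpm for Cd3e. The T cell genes Cd3d and Cd3g had higher means in CD CD45hi libraries, at 0.203 and 1.03 cpm (SD 0.363 and 2.07). In the other groups Cd3g was at 0.0 cpm and Cd3d at 0.0164 to 0.0895 cpm. None of these T cell genes could be tested. The study drew both gates within CD11b+CD3e- cells, so the sort itself had left out T cells. In such bulk samples, fewer cells of a type and less RNA per cell cannot be told apart.

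Because 4 members differed in the same direction between the gates, the DNA around the members' listed start sites was read from RefSeq (build GRCm38.p6). It was searched on both strands for the kappaB consensus, the 10-base sequence that NF-kappaB dimers bind. A window from 250 bases before to 50 bases after the start was listed for 7 of the 10 members. Nfkbiz, 1 of the 4, had no window and was not searched, nor were Nfkb1 and Relb. Of the 7 members with a window, 3 held a match: Tnfaip3, Nfkbia and Nfkb2. Over all genes in the table, 5.14% held a match in at least 1 window. The sequences below run 5′ to 3′ on the gene's strand, and capitals mark the bases of a match. The first 2 are the 150 bases before the start of Nfkbia (chr12:55492648-55492797, minus strand) and of Tnf (chr17:35202008-35202157, minus strand), neither of which overlaps an annotated exon. The next 2 are 30-base stretches around the matches in the first of 2 Tnfaip3 windows (chr10:19015516-19015545 and chr10:19015403-19015432, minus strand). The second stretch reaches into an annotated exon of Tnfaip3. Both lie inside the Tnfaip3 gene as GENCODE annotates it, whose start at chr10:19015657 is farther upstream. The other Tnfaip3 window held no match. The last is a 30-base stretch before the first listed start of Nfkb2 (chr19:46304688-46304717, plus strand), which annotated exons of Nfkb2 and of AC114539.1 overlap.
Nfkbia: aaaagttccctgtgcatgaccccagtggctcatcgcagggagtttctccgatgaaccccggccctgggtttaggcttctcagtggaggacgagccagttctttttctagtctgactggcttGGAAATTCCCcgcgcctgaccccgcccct
Tnf: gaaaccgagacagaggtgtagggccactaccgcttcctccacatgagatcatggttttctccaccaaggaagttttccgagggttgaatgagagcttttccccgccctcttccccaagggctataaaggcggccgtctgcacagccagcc
Tnfaip3, farther match: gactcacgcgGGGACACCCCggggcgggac
Tnfaip3, nearer match: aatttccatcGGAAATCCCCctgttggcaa
Nfkb2: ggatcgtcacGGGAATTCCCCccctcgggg
The Tnf window held no match, which says only that these letters are not in it. A match is a description of the sequence, and binding was not measured here. Nfkb2 held matches in each of its 3 listed windows, and its first window held overlapping matches and a separate one that is not printed. Nfkb2 was not among the genes that differed between the gates.

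The first comparison asks how the pathway genes differ between CD45hi and CD45lo cells. The ligand Tnf, the pathway brakes Tnfaip3 and Nfkbia, and the IkB-like regulator Nfkbiz were higher in CD45hi cells on both diets, by 2.77- to 4.67-fold. The receptors and the NF-kappaB subunits did not pass the same test. By edgeR's glmTreat, which asks for more than a 1.5-fold change at FDR < 0.05, 4 of 10 members were called in CD-fed mice, against 3.98% of all genes tested, and 4 of 10 in WD-fed mice, against 5.18%. All of the called members were higher in CD45hi cells. Where groups are said below not to overlap, the share of all genes that did so was not counted. The median log2 fold change of the 10 members was 0.42 in CD-fed and 0.74 in WD-fed mice, beside 0.04 and 0.0 over all genes.

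**Figure D1:**
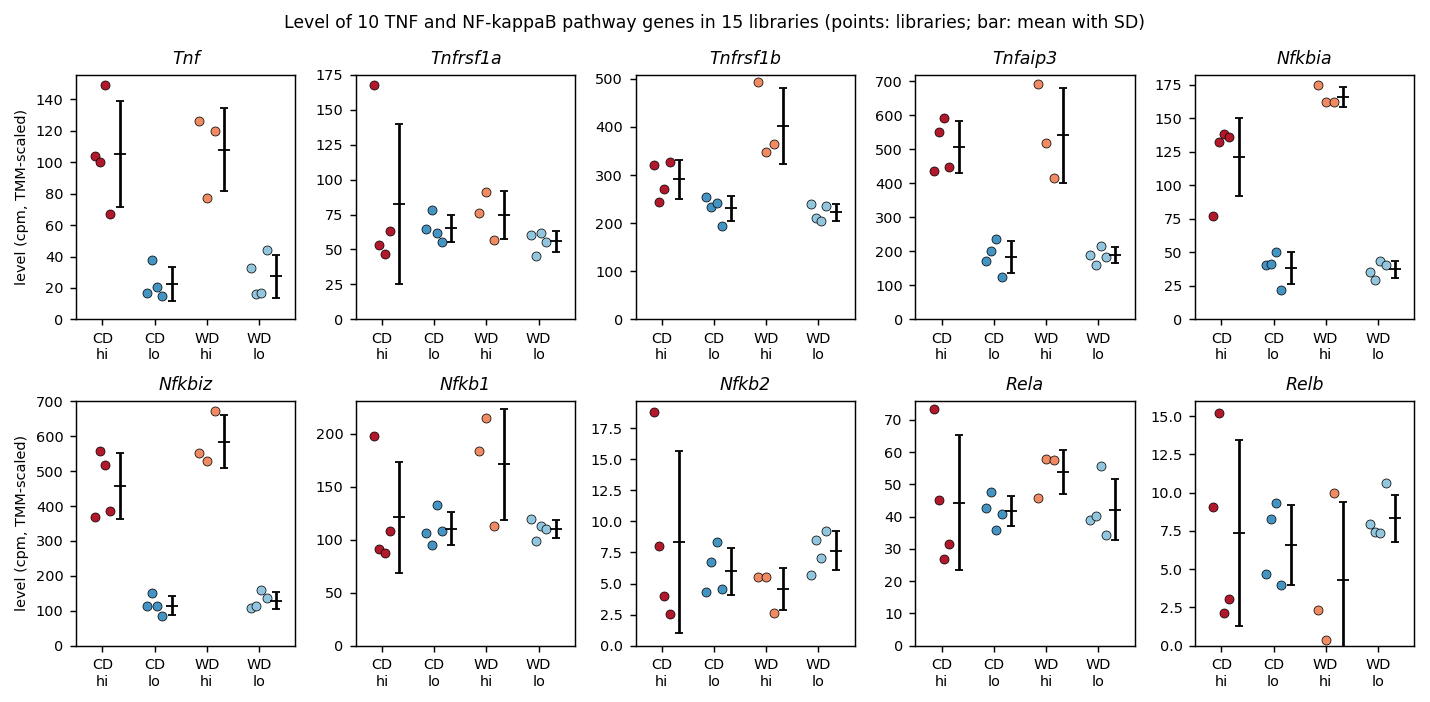
Level of each of the 10 genes (y axis, cpm after TMM scaling) in the 15 libraries by diet and CD45 level (x axis). Points are libraries and bars give the group mean with its SD, cut at 0 for Relb in WD CD45hi. The CD45hi and CD45lo points do not overlap on either diet for Tnf, Tnfaip3, Nfkbia and Nfkbiz.

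Tnf, the ligand that gives the pathway its name, lies at chr17:35199381-35202007 on the minus strand of mm10, as GENCODE annotates it, and the other positions given here are from the same annotation. It stood at 104, 100.4, 149 and 67.3 cpm (TMM-scaled counts relative to library size) in the 4 CD CD45hi libraries. In the 4 CD CD45lo libraries it was 16.5, 38.0, 20.6 and 14.9 cpm. The lowest CD45hi library was above the highest CD45lo library, and the fold change was 4.67 (log2 2.22, SE 0.391, edgeR FDR = 0.00561). In WD-fed mice Tnf was 126, 77.2 and 119.8 cpm in CD45hi and 32.7, 16.0, 16.6 and 44.3 cpm in CD45lo libraries. The groups again did not overlap, with a fold change of 3.92 (log2 1.97, SE 0.407, edgeR FDR = 0.0185). The Tnf call in WD-fed mice rested on single libraries. Without WD CD45lo replicate 2 the edgeR FDR was 0.0582, and without replicate 3 it was 0.0625, both at a log2 fold change of 1.79.

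Nfkbiz (chr16:55811375-55838899, minus strand) encodes IkB-zeta, a nuclear protein that works with NF-kappaB dimers at a subset of inflammatory genes. It was measured at 369, 557, 517 and 385 cpm in CD CD45hi and 113, 149.5, 114 and 84.0 cpm in CD CD45lo libraries. In WD-fed mice it was 551, 529.8 and 672 cpm in CD45hi and 107, 114, 159 and 136 cpm in CD45lo libraries. On each diet the lowest CD45hi library was well above the highest CD45lo library. The log2 fold change was 1.99 (SE 0.2) in CD-fed and 2.18 (SE 0.21) in WD-fed mice, with edgeR FDRs of 5.62e-05 and 2.59e-05, the lowest among the members.

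Nfkbia (chr12:55489410-55492647, minus strand) encodes IkB-alpha, which holds NF-kappaB in the cytoplasm and is itself switched on by it. The CD CD45hi libraries gave 77.3, 132, 138 and 136 cpm and the CD CD45lo libraries 40.7, 41.3, 50.5 and 21.9 cpm. The WD CD45hi libraries gave 175, 162 and 162 cpm and the WD CD45lo libraries 35.2, 29.5, 43.6 and 40.7 cpm. No CD45hi library fell within the CD45lo range. The fold change was 3.13 in CD-fed (log2 1.65, SE 0.259, edgeR FDR = 0.00434) and 4.46 in WD-fed mice (log2 2.16, SE 0.276, edgeR FDR = 0.000406).

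Tnfaip3 (chr10:19000910-19015657, minus strand) encodes A20, a ubiquitin-editing enzyme that ends TNF receptor signalling. It reached 437, 551, 592 and 448 cpm in CD CD45hi and 170.4, 199.7, 236 and 125 cpm in CD CD45lo libraries. In WD-fed mice the values were 691, 518 and 414 cpm in CD45hi and 190.0, 159.9, 217 and 183 cpm in CD45lo libraries. The groups were apart on both diets, with fold changes of 2.77 (log2 1.47, SE 0.201, edgeR FDR = 0.00216) and 2.89 (log2 1.53, SE 0.213, edgeR FDR = 0.00209). The Tnfaip3 call depended on the scale of the values: with limma on the deposited TPM, each library centred on its median, the log2 fold change was 1.3 in CD-fed mice (FDR = 0.109 past 1.5-fold) and 1.41 in WD-fed mice (FDR = 0.0689). Without centring it was 0.93 (FDR = 0.497) and 0.87 (FDR = 0.498).

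Of the receptors, Tnfrsf1b (chr4:145213463-145246870, minus strand), which encodes TNFR2, was the more abundant in cpm. It was 321, 244, 270.2 and 328 cpm in CD CD45hi and 254, 234, 241 and 195 cpm in CD CD45lo libraries, and these ranges overlapped. In WD-fed mice it was 494, 348 and 364 cpm in CD45hi and 239.8, 210.0, 205 and 236 cpm in CD45lo libraries, with no overlap. The WD fold change was 1.8 (log2 0.85, SE 0.164), which passed edgeR's glmQLFTest for a change of any size (FDR = 0.00261) but not the 1.5-fold test (FDR = 0.168). The call for any size was lost with limma on log2(TPM + 1), where the log2 fold change was 0.29. It was kept when each library was centred on its median. By the test for any size, 5 of 10 members were called in WD-fed mice, against 9.12% of all genes, and 4 of 10 in CD-fed mice, against 8.03%. The fold change of Tnfrsf1b in CD-fed mice was 1.26 (log2 0.33, SE 0.153, glmQLFTest FDR = 0.234 in edgeR).

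Tnfrsf1a (chr6:125349362-125362484, plus strand), which encodes TNFR1, the receptor found on most cell types, did not pass either test. Its levels were 168, 53.0, 46.5 and 63.1 cpm in CD CD45hi and 64.6, 78.3, 62.0 and 55.6 cpm in CD CD45lo libraries. Replicate 1 of CD CD45hi stood alone above the rest. Without that library the log2 fold change went from 0.35 to -0.26. In WD-fed mice the log2 fold change was 0.42, with a 95% interval of -0.34 to 1.19.

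The NF-kappaB subunits are encoded by Rela and Relb, which carry the activation domains, and by Nfkb1 and Nfkb2, whose products are cut to the DNA-binding proteins p50 and p52. Nfkb1 lies at chr3:135584655-135691547 (minus strand), Nfkb2 at chr19:46304320-46312385 (plus strand), Rela at chr19:5637483-5648130 (plus strand) and Relb at chr7:19606217-19629438 (minus strand). None of the 4 was called on either diet. Nfkb1 was 198, 91.2, 87.4 and 108 cpm in CD CD45hi and 106, 95.2, 133 and 108 cpm in CD CD45lo libraries, an overlapping pair of groups. In WD-fed mice Nfkb1 was 184, 215 and 113 cpm in CD45hi and 119, 99.1, 113 and 109.7 cpm in CD45lo libraries (log2 fold change 0.63, 95% interval 0.06 to 1.2, edgeR FDR = 0.591 past 1.5-fold and 0.163 for any size). Rela ranged from 26.8 to 73.4 cpm over the CD CD45hi libraries and from 36.0 to 47.5 cpm over the CD CD45lo libraries (log2 fold change 0.08, 95% interval -0.56 to 0.73).

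Nfkb2 and Relb, the non-canonical subunits, were the least abundant members. Nfkb2 ranged from 2.57 to 18.8 cpm in CD CD45hi libraries. In WD-fed mice all 3 CD45hi libraries (5.55, 5.5 and 2.61 cpm) were below the 4 CD45lo libraries (5.7, 8.53, 7.03 and 9.24 cpm), but the log2 fold change of -0.74 had a 95% interval of -2.2 to 0.71 and an edgeR FDR of 0.752. Relb ranged from 0.403 to 10 cpm in the WD CD45hi libraries alone, and its log2 fold change of -0.96 there had a 95% interval of -2.83 to 0.9. Relb had fractional expected counts in 13 libraries, which means that some of its reads were shared with other genes, so its value is uncertain. For both genes the intervals are wide enough to hold a change of more than 1.5-fold in either direction.

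**Figure D2:**
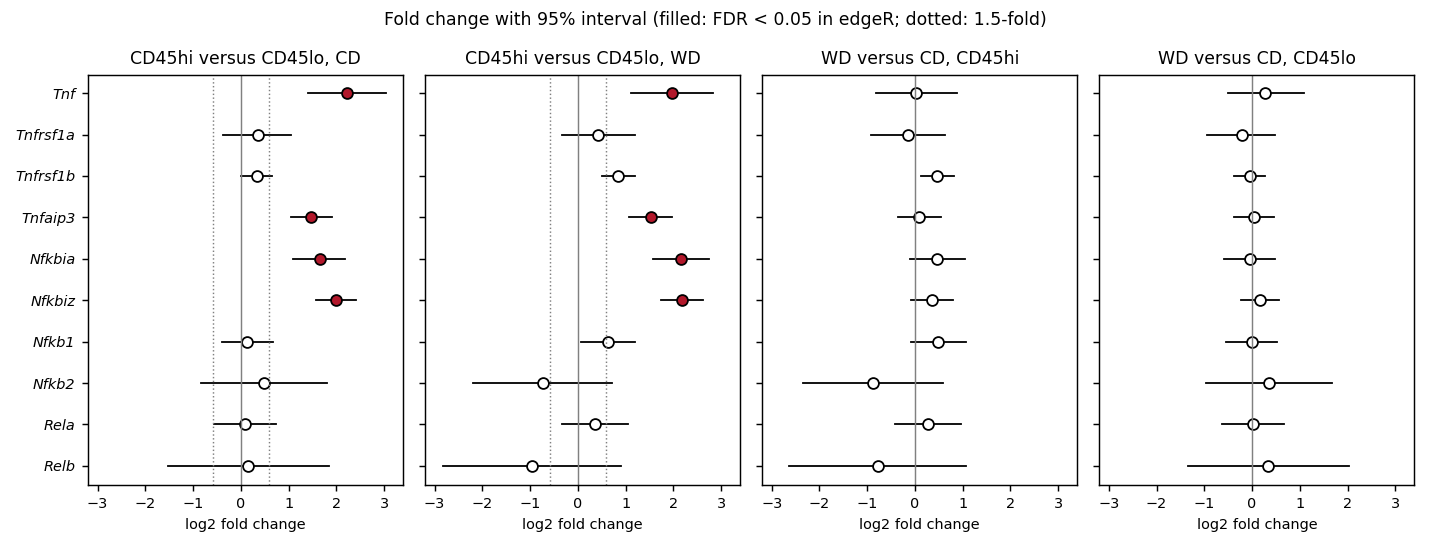
Log2 fold change of each gene (x axis) with its 95% interval in the 4 comparisons. Filled points have an edgeR FDR under 0.05, in the 2 left panels for a change past 1.5-fold (dotted lines). Tnf, Tnfaip3, Nfkbia and Nfkbiz are filled for CD45hi versus CD45lo on both diets, and no point is filled for WD versus CD.

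Levels of different genes can be compared per transcript length, on the TPM scale. In CD CD45lo libraries Tnfrsf1b was the highest member at a mean of 119.5 TPM (104 to 132), and Tnfaip3 followed at 97.9 TPM, with ranges that overlapped. Nfkb1, Tnfrsf1a, Nfkbiz and Nfkbia then lay between 65.8 and 51.6 TPM, each overlapping the next. Tnf was eighth at 28.7 TPM (19.9 to 46.9), apart from Relb at 6.0 and Nfkb2 at 3.88 TPM. In CD CD45hi libraries Tnfaip3 and Nfkbiz led at 186 and 185 TPM and overlapped each other. Nfkbia, Tnfrsf1b, Tnf and Tnfrsf1a followed at 118, 109, 99.0 and 92 TPM, each overlapping the next. In WD CD45hi libraries Nfkbiz was first at 228 TPM (195 to 279), followed by Tnfaip3 at 180.3, Nfkbia at 153 and Tnfrsf1b at 143 TPM. Rela, Relb and Nfkb2 took the last 3 places in CD CD45hi, WD CD45hi and WD CD45lo libraries, and in CD CD45lo libraries Rela was just above Tnf.

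**Figure D3:**
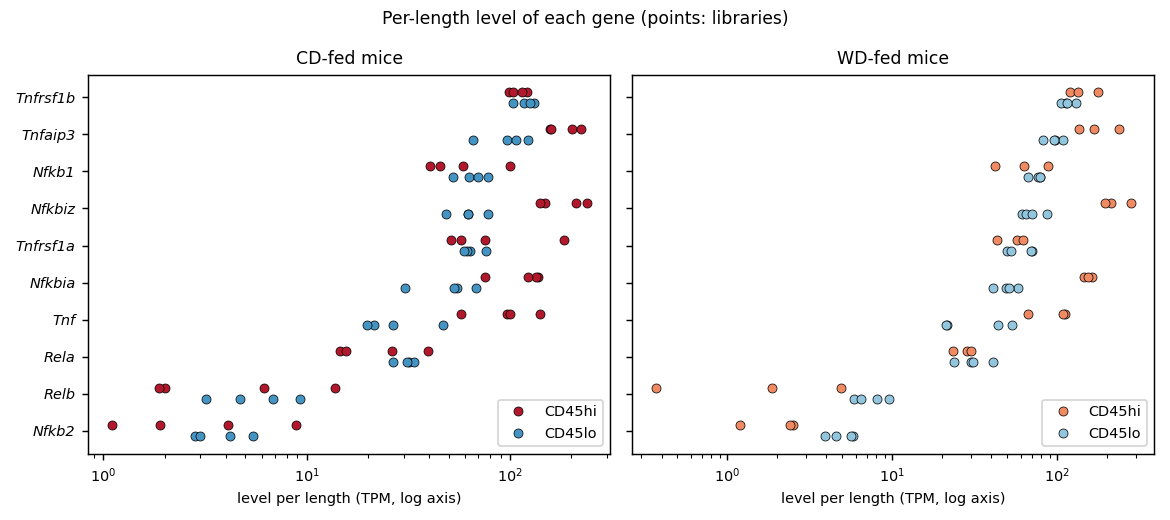
Level per transcript length (x axis, TPM on a log scale) of each gene, ordered by its mean in CD45lo libraries, with a point for each library. In CD-fed mice Tnfaip3, Nfkbiz, Nfkbia and Tnf are higher in CD45hi than in CD45lo libraries, whereas the points of Nfkb1, Rela, Relb and Nfkb2 overlap.

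The other genes of the pathway were taken from lists by role. Outside the 10 members and the target genes, 62 of 68 listed genes could be tested, and 2 were called higher in CD45hi cells on each diet, with none lower, a share no larger than the 3.98% and 5.18% of all genes. These were Zfp36 and Tnip3, both negative regulators. Zfp36 encodes tristetraprolin, an RNA-binding protein that destabilises Tnf mRNA. It rose from 2272 ± 594 cpm (SD, n = 4) in CD CD45lo to 5040.1 ± 447 cpm (SD, n = 4) in CD CD45hi cells (log2 fold change 1.15, edgeR FDR = 0.0176) and by a log2 fold change of 1.17 in WD-fed mice (edgeR FDR = 0.0182). Tnip3, an A20-binding inhibitor, was at 0 counts in all 4 CD CD45lo libraries and at 0.393 to 10.1 cpm in CD CD45hi libraries. Its CD45hi mean was at least 30.3-fold higher than the limit of 3 counts in a CD45lo library (0.184 cpm). In WD-fed mice Tnip3 was at 5.7 to 26.9 cpm in CD45hi libraries and at 0.0 to 0.329 cpm in CD45lo libraries (edgeR FDR = 0.00855). Rel, the gene of the subunit c-Rel, had log2 fold changes of 0.22 in CD-fed and 0.26 in WD-fed mice and was not called. No gene of the receptor complex (17 tested), the kinase cascade (11 tested) or the Rel subunits (5 tested, Rel included) was called past 1.5-fold on either diet. By edgeR's test for any size, 6 of the 62 were higher and 1 lower in CD-fed mice, against 8.03% of all genes called, and 5 were higher and 2 lower in WD-fed mice, against 9.12%. Besides Zfp36 and Tnip3, the higher genes were Birc3 on both diets, Tnfsf8, Tnfsf9 and Nfkbid in CD-fed mice, and Traf3 and Itch in WD-fed mice, and the lower genes were Casp8 on both diets and Tnfrsf21 in WD-fed mice. Traf3, an adaptor that restrains the non-canonical branch, had a log2 fold change of 1.22 in WD-fed mice (FDR = 0.0103 in edgeR), and the death receptor gene Tnfrsf21 one of -1.14 (FDR = 0.00675 in edgeR). Birc3, a ubiquitin ligase of the receptor complex, had log2 fold changes of 0.85 in CD-fed (FDR = 0.0156 in edgeR) and 0.88 in WD-fed mice (FDR = 0.0167). Casp8, the caspase that can turn TNFR1 signalling towards cell death, was lower by the same test (log2 -0.66 on each diet, FDR = 0.035 and 0.049).

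Part of a list of known NF-kappaB target genes was also higher in CD45hi cells. Of the 26 that could be tested, 14 were called higher in CD45hi cells in CD-fed and 14 in WD-fed mice by edgeR's glmTreat, against 3.98% and 5.18% of all genes, and none was lower. The other 12 did not pass on that diet. The median log2 fold change of the list was 1.85 and 1.77. The list was drawn up with earlier results of these data known. It holds Cxcl2, Il1b and Ptgs2, which the study had reported among its most enriched CD45hi genes. Its count beside the all-gene share is therefore a description and not a test of enrichment. Among the called targets, the largest changes in WD-fed mice were those of Cxcl2, Clec4e, Ptgs2 and Il1b. Cxcl2, a chemokine that draws neutrophils, was at 95 ± 31.8 cpm (SD, n = 3) in WD CD45hi and 0.701 ± 0.85 cpm (SD, n = 4) in WD CD45lo cells (log2 fold change 7.11, edgeR FDR = 3.13e-06). Il1b, the gene of interleukin-1 beta, was at 483 ± 141 cpm (SD, n = 3) and 8.03 ± 1.65 cpm (SD, n = 4) in the same groups (log2 fold change 5.91, edgeR FDR = 2.1e-07). Clec4e, an innate receptor, and Ptgs2, which encodes the prostaglandin enzyme COX-2, had log2 fold changes of 6.36 and 5.97 in WD-fed mice. Il6 and Icam1, both classic targets, were not called on either diet, with log2 fold changes of 0.24 and 0.41 in WD-fed mice and 0.14 and -0.75 in CD-fed mice. Without CD CD45hi replicate 1, 13 of 25 tested targets were called in CD-fed mice (3.99% of all genes), and without WD CD45hi replicate 1, 12 of 26 were called in WD-fed mice (5.12% of all genes).

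**Figure D4:**
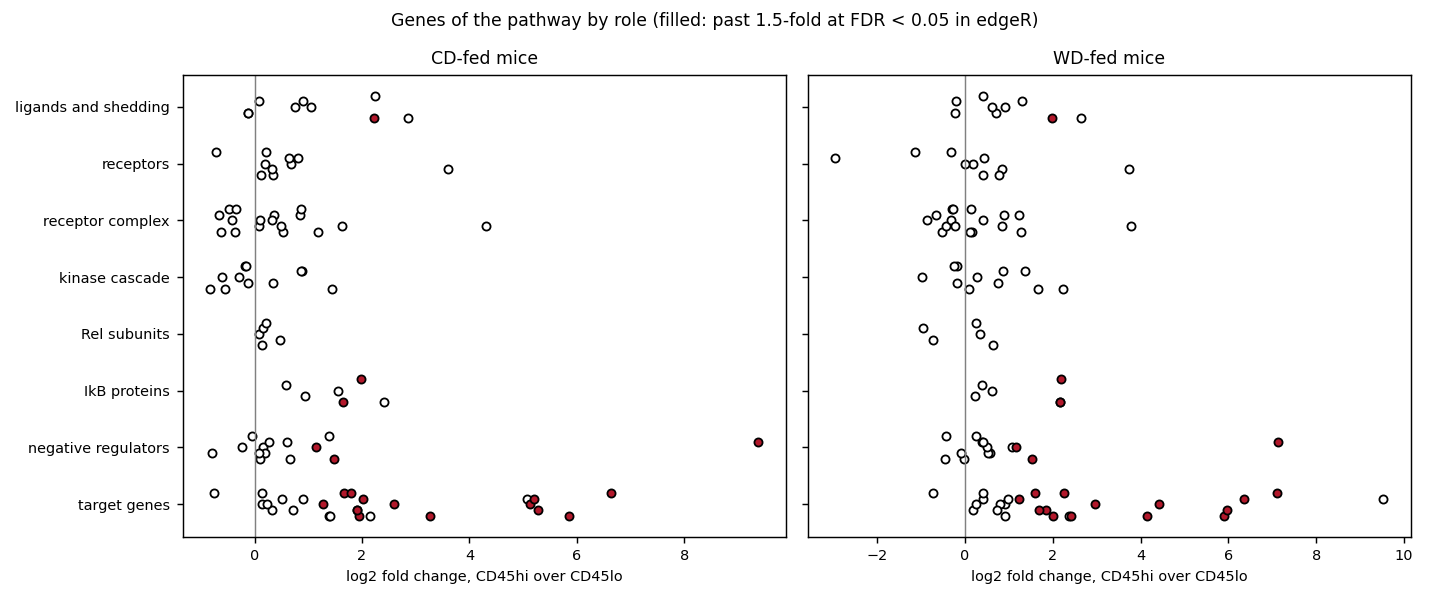
Log2 fold change of CD45hi over CD45lo (x axis) for each tested gene of the pathway, by role (y axis), in CD-fed and WD-fed mice. Filled points passed 1.5-fold at an edgeR FDR under 0.05, and they lie among the target genes, the negative regulators, the IkB proteins and Tnf. The point farthest right among the negative regulators is Tnip3, whose fitted value in CD-fed mice depends on the prior count because CD45lo libraries were at 0.

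Markers of other cells differed between the same groups. The 10 neutrophil markers summed to 1738 to 4021 cpm in CD CD45hi and 646 to 1312 cpm in CD CD45lo libraries, with 6 of 10 called higher on each diet. The 10 monocyte markers summed to 709.8 to 1441 cpm and 97.9 to 210.2 cpm in those groups, and the 6 dendritic cell markers to 138 to 297 cpm and 18.8 to 35.7 cpm. In WD-fed mice the CD45hi and CD45lo sums were 1455 to 2497 and 735 to 948 cpm for neutrophil, 938 to 1455 and 64.8 to 209 cpm for monocyte, and 122 to 252 and 22.3 to 31.6 cpm for dendritic cell markers. Csf3r, which was not called, made up much of the CD45lo neutrophil sums, at group means of 551 cpm in CD-fed and 684 cpm in WD-fed mice. Of the called neutrophil markers, S100a8 and Cxcr2 averaged 301 and 438 cpm in CD CD45hi and 25.5 and 19.4 cpm in CD CD45lo cells. The 12 lymphocyte markers summed to 21.6 to 68.5 cpm in CD CD45hi and 6.82 to 13.2 cpm in CD CD45lo libraries. In WD-fed mice the CD45hi and CD45lo lymphocyte sums were 35.6 to 167 and 3.49 to 9.7 cpm. Of the 8 lymphocyte markers that could be tested, 2 were called higher past 1.5-fold in CD-fed and 4 in WD-fed mice, among them the natural killer cell genes Nkg7 and Klrb1c. The sum over 15 immediate early genes, which dissociation of tissue is known to raise, was 6648 to 7790.2 cpm in CD CD45hi and 2598 to 6669.6 cpm in CD CD45lo libraries. In WD-fed mice it was 6291 to 7499 cpm and 3060 to 6224 cpm. Of these 15 genes, Nr4a1 alone was called past 1.5-fold on each diet. For this list and the marker lists above, the share of all genes called was 3.98% in CD-fed and 5.18% in WD-fed mice. The log2 fold changes of Nr4a1 were 4.17 in CD-fed and 4.6 in WD-fed mice by edgeR. The medians of the list were 0.9 and 0.76, so Nr4a1 was not typical of it. For a change of any size, 5 of 15 were called higher in CD-fed mice, against 8.03% of all genes, and 3 of 15 in WD-fed mice, against 9.12%. These were Nr4a1, Fos and Ier2 on both diets, with Junb and Egr2 in CD-fed mice. Within CD45lo cells, the library with the highest immediate early sum on each diet was also the one with the most Tnf. Tnf there was 38.0 cpm beside a sum of 6669.6 cpm in CD-fed and 44.3 cpm beside 6224 cpm in WD-fed mice. The same held in CD CD45hi cells (149 cpm beside 7790.2 cpm). In WD CD45hi cells the library with the most Tnf (126 cpm) had the lowest sum (6291 cpm). The other called members were mixed. In CD45lo cells Nfkbia and Tnfaip3 were highest, on both diets, in a library other than the one with the highest sum. Nfkbiz was highest in that library in CD-fed but not in WD-fed mice. In CD45hi cells, Nfkbia and Tnfaip3 were highest in the library with the highest sum in CD-fed mice only, and Nfkbiz in WD-fed mice only. The part of these cells and genes in the members' differences was not tested.

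The second comparison asks whether the western diet changed the pathway within each gate. The CD45hi gate is a mixture whose makeup may differ by diet. In CD and WD CD45hi libraries, neutrophil markers summed to 1738 to 4021 and 1455 to 2497 cpm. Border macrophage markers summed to 1683 to 1851 and 616 to 2337 cpm, and monocyte markers to 709.8 to 1441 and 938 to 1455 cpm. No gene of these lists was called between diets, and the part of makeup was not tested. In CD45hi cells none of the 10 members was called by edgeR's glmQLFTest, against 0.254% of all genes, and 1 member of 10, Tnfrsf1b, was under an unadjusted p of 0.05, as were 17.6% of all genes. The count of members was also 0 by limma-voom and by DESeq2, which called 6.88% of all genes here. The 3 WD CD45hi libraries were all above the 4 CD CD45hi libraries for Tnfrsf1b (log2 fold change 0.47, 95% interval 0.12 to 0.81, FDR = 0.164) and for Nfkbia (log2 fold change 0.46, 95% interval -0.11 to 1.04, FDR = 0.391). The share of all genes whose libraries separate in this way was not counted, and neither gene was called. For Tnf the groups were side by side, at means of 105 ± 33.7 (SD, n = 4) and 108 ± 26.5 cpm (SD, n = 3), and the interval of the fold change ran from 0.567 to 1.84. The interval for Tnfaip3, 0.782 to 1.46, did not reach a 1.5-fold rise, whereas that for Nfkbiz, 0.944 to 1.73, did.

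In CD45lo cells none of the 10 members was called between the diets by edgeR, where 0% of all genes were called. There 123 genes (0.822%) had an unadjusted p under 0.05, a smaller share than chance alone would give at that threshold. The test was thus conservative here and could miss small changes. No member reached an unadjusted p of 0.05, and the count of called members was 0 by DESeq2 and by limma-voom. The log2 fold changes ran from -0.22 for Tnfrsf1a to 0.35 for Nfkb2. The tightest interval was that of Tnfrsf1b, with a fold change between 0.771 and 1.21. All 4 groups shared 1 estimate of each gene's spread. The intervals therefore do not measure the spread among CD45lo libraries alone.

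The third comparison asks whether the difference between CD45hi and CD45lo cells itself differed by diet. The interaction test of edgeR called none of the 10 members, against 0.00668% of all genes, which is 1 gene. The largest interaction relative to its error was that of Tnfrsf1b (log2 0.52 more in WD-fed mice, 95% interval 0.04 to 0.99, unadjusted p = 0.0345, FDR = 0.455). It was the 1 member of 10 under an unadjusted p of 0.05, as were 10.1% of all genes. For Tnf the interaction was -0.25 with a 95% interval of -1.42 to 0.91, and for Nfkbia it was 0.51 with an interval of -0.27 to 1.3. So although Tnfrsf1b passed the test for any size on the western diet only, its response was not shown to differ between the diets.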

How the data were processed

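Paired-end reads were trimmed by the authors (NGS QC Toolkit) and counted with RSEM 1.2.12, Bowtie2 and mm10. The authors deposited expected counts, TPM and a mean transcript length per gene, one file a library. The annotation release and the strand setting are not given in the sources used here, and the kit does not mark strand.

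Expected counts were rounded, a gene was kept where 2 or more of the 15 libraries reached 1 cpm, and counts were TMM-normalised and fitted in 1 model with 4 groups in edgeR 4.0.16 (R 4.3.3, earlier quasi-likelihood form). CD45hi and CD45lo were compared with glmTreat past 1.5-fold and with glmQLFTest. Diets and the interaction were compared with glmQLFTest. FDR is Benjamini-Hochberg over all 14967 genes. DESeq2 1.42.0 and limma 3.58.1 served as alternatives. The script was tested on simulated data. The limit of 3 counts is 0.156 to 0.282 cpm, for counting error only. Groups came from the sample titles. The members and gene lists were chosen with earlier results of these data known. In each list, up to 4 called genes with the largest changes in WD-fed mice were named. Il6, Icam1, neutrophil, lymphocyte and immediate early genes, and pathway genes called only for any size were named after their values were seen. Sequencing platform is not assigned to libraries, so it cannot be told apart from group.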

Additional observations from a re-analysis of the deposited data

Results flagged for a closer look

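Among 30 tests of a single library standing apart in a group of 4 (10 genes in 3 groups), 2 passed Dixon's 95% limit, and chance gives about 1 in 20. Both concern CD CD45hi replicate 1. Tnfrsf1a was at 168 cpm in that library, and the other 3 of its group lay between 46.5 and 63.1 cpm. Nfkbia was at 77.3 cpm, and the other 3 lay between 132 and 138 cpm. Nfkb1, Nfkb2 and Rela were also highest in this library within its group, at 198, 18.8 and 73.4 cpm, without passing the limit. The group of 3 WD CD45hi libraries was not tested.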

How the results depend on the processing

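The count of called members stayed at 4 in CD-fed mice under every alternative on the counts, and at 4 in WD-fed mice except when WD CD45lo replicate 2 or 3 was left out (3, without Tnf). The counts for the diets and the interaction were 0 throughout. On the deposited TPM, an alternative added after seeing the data, the all-gene median of the log2 fold change was -0.431 in CD-fed and -0.52 in WD-fed mice. With limma on log2(TPM + 1), 1 member was called in CD-fed (Nfkbiz) and 2 in WD-fed mice (Nfkbia and Nfkbiz). With each library centred on its median, 3 were called on each diet (Tnf, Nfkbia and Nfkbiz). The cause was not tested. Same-numbered CD45hi and CD45lo libraries deviated together by correlations of -0.022 to 0.069. Such values cannot show whether libraries share a mouse, and the numbers were not taken as pairs. By title numbers, 7 of 8 CD libraries and 0 of 6 WD libraries correlated best with their own number, and by file numbers 7 of 8 and 3 of 6, a hint from the data and not from the design. The replicate block changed no call of a member, but it lowered the count of all genes past 1.5-fold in WD-fed mice from 775 to 398 by title numbers and 353 by file numbers.

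The directions that turned all belong to members not called in that comparison. For CD45hi over CD45lo in CD-fed mice these were, on log2(TPM + 1), Tnfrsf1b -0.13, Nfkb1 -0.18, Nfkb2 -0.19, Rela -0.46 and Relb -0.27, with centring Rela -0.09, with limma-voom Relb -0.17, and with either replicate block Rela -0.02 and Relb -0.12. In WD-fed mice they were, on log2(TPM + 1), Tnfrsf1a -0.16, Nfkb1 -0.28 and Rela -0.17. Between diets in CD45hi cells they were, on log2(TPM + 1), Tnf -0.02 and Tnfaip3 -0.06. Between diets in CD45lo cells they were Tnfaip3 -0.0018 and Nfkb1 0.2 on log2(TPM + 1), Tnfaip3 -0.02, Nfkb1 0.18 and Rela -0.02 with centring, Nfkbia 0.02 and Nfkb1 0.02 with limma-voom, Nfkb1 0.0037 with the edgeR 4 form and Rela -0.0038 without a filter. For the interaction they were Tnfrsf1a -0.45, Tnfaip3 -0.06 and Nfkb1 -0.1 on log2(TPM + 1), Tnfrsf1a -0.29 with centring, Tnfaip3 -0.01 with limma-voom and Tnf 0.08 with the replicate block by titles.

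Leaving out 1 library at a time, the values in CD-fed mice ran from -0.26 to 0.54 for Tnfrsf1a, -0.21 to 0.26 for Nfkb1, -0.3 to 0.78 for Nfkb2, -0.27 to 0.26 for Rela (these genes were lowest without CD CD45hi replicate 1) and -0.47 to 0.47 for Relb. Between diets in CD45hi cells they ran from -0.13 to 0.25 for Tnf, -0.34 to 0.46 for Tnfrsf1a and -0.12 to 0.26 for Tnfaip3. In CD45lo cells they ran from -0.05 to 0.65 for Tnf, -0.11 to 0.19 for Tnfaip3, -0.24 to 0.11 for Nfkbia, -0.07 to 0.1 for Nfkb1 and -0.15 to 0.1 for Rela. For the interaction they ran from -0.61 to 0.08 for Tnf, -0.12 to 0.69 for Tnfrsf1a and -0.16 to 0.22 for Tnfaip3. The number of all genes called between diets in CD45hi cells was 38 as reported, 1030 with DESeq2, 252 with the edgeR 4 form, 2 with the replicate block by titles, 0 when those groups were fitted alone and 1 to 286 without 1 library. With DESeq2 it was 4 in place of 0 between diets in CD45lo cells, 188 in place of 1 for the interaction, and 1867 and 2358 in place of 1202 and 1365 for a change of any size between the gates in CD-fed and WD-fed mice. With the replicate block these last 2 counts were 786 and 718 by titles and 770 and 637 by file numbers. Past 1.5-fold in WD-fed mice, 492 genes were called on centred TPM, and 515 and 513 without WD CD45lo replicates 1 and 3. In CD-fed mice it was 396 on log2(TPM + 1) in place of 595.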

Other observations

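The mean transcript length that RSEM assigned to Tnfrsf1a, weighted by the estimated share of each transcript, set the CD CD45hi libraries apart. It was 1224 to 1532 bases in the 4 CD CD45hi libraries, 1997 to 2088 in CD CD45lo, 1897 to 2015 in WD CD45hi and 1849 to 2023 in WD CD45lo libraries. Of 9250 genes whose length differed by more than 10 bases between libraries, 23 (0.249%) were likewise shorter in all 4 CD CD45hi libraries than in the other 11. This was noticed in the data, and no test was run.

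Among 8252 other genes with a mean of at least 10 cpm, those whose log2 cpm over the 15 libraries, after subtracting group means, was most like that of Tnf were Hmgb2 (r = 0.85), Nckap5l (0.82), Odc1 (0.82), Fry (0.8) and 8430427H17Rik (0.79). For Nfkbia they were Gm26809 (0.82), Hspa1a (0.81), Fosb (0.79), mt-Nd3 (0.79) and Zfp36 (0.78). All points share the same libraries and scaling, and the ranking is a description with no test.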
